A study of Mus musculus with 9 samples.

Results

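The genes described here are 10 transcripts widely used as markers of neutrophils: Csf3r, Fpr1, Fpr2, Trem1, Clec4e, Clec4d, Il1r2, Ltf, Ngp and Retnlg. They were chosen by name, and each symbol was matched through its Ensembl identifier to 1 row of a table of 55401 features from mouse ear. All 10 were found, and 9 passed the filter on low counts; Ngp did not. The table holds 9 libraries of poly(A)-selected RNA from the ears of C57 mice, 3 in each of 3 groups. Control ears had absolute ethyl alcohol, MC903 ears had MC903 (calcipotriol, a vitamin D analogue used on mouse skin as a model of atopic dermatitis), and the third group had MC903 together with 200 mg/kg of paeonol, a plant phenol known from peony. No group received paeonol alone, the labels name no vehicle for it, and they give no genotype beyond the strain and no age, sex, route or length of treatment. Whether the libraries of a group come from separate animals is not stated. The p-values therefore reflect the scatter of these libraries alone, and that scatter may be technical.

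Neutrophils are short-lived granulocytes that enter skin from blood within hours of injury or inflammation. Granulocyte colony-stimulating factor, acting through its receptor Csf3r, drives their production, and surface receptors such as Fpr1, Fpr2, Trem1, Clec4e and Clec4d sense bacterial products and damaged cells. Their granules are filled while the cells mature in bone marrow, so that transcripts of granule proteins such as Ngp and Ltf are strongest in precursors and low in the mature cells that reach a tissue. Several of these genes are also active in other cells. Monocytes and macrophages carry many of the same receptors, Il1r2 is made by epithelial cells too, and lactoferrin is a product of glands.

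Expression is given in CPM (estimated counts scaled to a common library size with TMM factors), and group values are mean ± SD with n = 3. Libraries held 54264605 to 57745225 estimated counts. Changes are log2 changes ± standard error (SE) from edgeR's quasi-likelihood test, with 21925 genes and all 9 libraries in 1 fit. A gene was called, and is said to have risen or fallen, at a Benjamini-Hochberg adjusted p under 0.05 over all genes tested. Much of the transcriptome passed this threshold. MC903 differed from control in 46.8% of genes tested (23.0% higher, 23.8% lower), MC903 with paeonol from MC903 in 29.7% (15.3% higher, 14.3% lower), and MC903 with paeonol from control in 30.9% (16.3% higher, 14.5% lower).

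The start sites of Retnlg and of receptor genes other than Il1r2 are shown because these genes moved together across the 3 groups. They were thus picked by their values, and shared control was not tested. For each of the 10 genes, the 250 bases before the RefSeq start (GRCm38.p6) were read on the strand of the gene. The 5 windows free of annotated exons are printed 5′ to 3′, with capitals marking the word GAGGAA, a core of the sites of the myeloid factor PU.1, or TTGCNNAA, a form of the C/EBP site, on either strand.
Fpr2: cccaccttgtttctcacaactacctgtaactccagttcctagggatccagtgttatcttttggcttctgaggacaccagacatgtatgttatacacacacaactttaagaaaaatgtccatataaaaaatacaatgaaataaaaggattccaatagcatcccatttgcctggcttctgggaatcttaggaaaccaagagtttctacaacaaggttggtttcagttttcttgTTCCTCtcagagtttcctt
Trem1: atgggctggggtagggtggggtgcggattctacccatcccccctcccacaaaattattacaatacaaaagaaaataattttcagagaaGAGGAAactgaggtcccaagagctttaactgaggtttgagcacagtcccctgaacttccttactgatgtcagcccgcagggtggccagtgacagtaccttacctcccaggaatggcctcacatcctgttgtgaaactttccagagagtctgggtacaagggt
Clec4e: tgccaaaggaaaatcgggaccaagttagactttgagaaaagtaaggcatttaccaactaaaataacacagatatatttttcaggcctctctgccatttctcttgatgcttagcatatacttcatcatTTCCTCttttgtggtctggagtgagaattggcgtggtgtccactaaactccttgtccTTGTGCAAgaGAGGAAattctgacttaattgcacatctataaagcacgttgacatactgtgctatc
Clec4d: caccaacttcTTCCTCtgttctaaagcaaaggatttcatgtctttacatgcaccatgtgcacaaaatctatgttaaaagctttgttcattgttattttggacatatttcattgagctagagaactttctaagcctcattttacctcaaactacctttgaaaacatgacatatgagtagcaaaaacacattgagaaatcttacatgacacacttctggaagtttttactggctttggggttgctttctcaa
Retnlg: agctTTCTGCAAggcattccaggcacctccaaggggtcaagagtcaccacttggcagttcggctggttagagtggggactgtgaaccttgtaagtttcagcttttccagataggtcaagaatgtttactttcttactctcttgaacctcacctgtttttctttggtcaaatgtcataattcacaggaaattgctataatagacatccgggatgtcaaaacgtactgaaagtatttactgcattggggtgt
These windows lie at chr17:17887574-17887823 (Fpr2, plus strand), chr17:48232489-48232738 (Trem1, plus strand), chr6:123289872-123290121 (Clec4e, minus strand), chr6:123261857-123262106 (Clec4d, plus strand) and chr16:48872358-48872607 (Retnlg, plus strand). GAGGAA stood in the windows of 6 of the 10 genes (Csf3r, Fpr2, Trem1, Clec4e, Clec4d and Ltf), against 23.3% of 32851 RefSeq windows of the same length. TTGCNNAA stood in 4 of the 10 (Clec4e, Ltf, Ngp and Retnlg), against 9.56%. TGANTCA, the AP-1 core, stood in 0 of the 10, against 6.75%, and a loose outline of the NF-κB site in 2 of the 10 (Csf3r and Ltf), against 45.8%. The windows of Fpr1 and Il1r2 held none of these words. The words do not overlap each other in the printed windows. A match is a description of letters, and binding was not measured.

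The label of the set was checked against 7 defining markers of neutrophils, of which Ly6g, Elane, Camp and Mpo had at most 40 estimated counts in any library, while S100a8, S100a9 and Cxcr2 were well detected. Ly6g, the classical surface marker of mouse neutrophils, had 0 to 12 estimated counts per library and was at 0 in all 3 paeonol libraries. The protease gene Elane had 0 to 7 and the antimicrobial peptide gene Camp 0 to 21. Myeloperoxidase, Mpo, had 13 to 40 in control, 0 to 5 in MC903 and 0 to 27 with paeonol. Elane, Camp and Mpo encode granule proteins, whose transcripts are low in mature cells, so their low counts cannot decide whether neutrophils were present. S100a8 and S100a9, abundant in neutrophils but also made by keratinocytes, were the main part of a 7-gene list of defining markers, whose summed level was 86.0 to 331 CPM in control, 236 to 349 CPM in MC903 and 267 to 302 CPM with paeonol. Neither was called in any comparison. Cxcr2, the chemokine receptor of neutrophils, rose from 3.51 ± 1.39 CPM in control to 10.4 ± 1.77 CPM in MC903 and was higher again with paeonol, at 18.3 ± 2.48 CPM (SD, n = 3), an order unlike that of the receptors below. Of the 7 markers 5 were tested, Cxcr2 was the only 1 called in any of the 3 comparisons, and the median log2 changes of the 5 were 0.27, 0.82 and 0.39 in MC903 versus control, paeonol versus MC903 and paeonol versus control. The genes are therefore called neutrophil marker genes here by their names, and the data do not assign their RNA to neutrophils.

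Across the set, transcripts of 6 genes rose in MC903 ears (Csf3r, Fpr1, Fpr2, Trem1, Clec4d and Retnlg) and 1 fell (Il1r2), while Clec4e and Ltf were not called. With paeonol, 7 fell against MC903 (the 6 that had risen and Clec4e) and Il1r2 rose. Against control, the MC903 with paeonol ears had lower Trem1 and lower Il1r2, and the other 7 tested were not called. In this order of comparisons, 7, 8 and 2 of the 9 tested were called, against 46.8%, 29.7% and 30.9% of all genes. Of the 9 tested genes, 8 had groups that did not overlap in MC903 versus control, against 58.1% of all genes, 8 in MC903 with paeonol versus MC903, against 43.9%, and 2 in MC903 with paeonol versus control, against 46.4%. The comparisons share libraries, so they are not independent of each other. The median log2 change of the 9 tested genes was 2.00, -2.81 and -0.55 in the 3 comparisons in this order, and that of all tested genes was -0.02, 0.00 and -0.03. Fpr1 reached the filter in 1 control and 1 paeonol library and in all 3 MC903 libraries, so that it was tested only by being high in MC903, and these counts and medians describe the set without supporting it.

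**Figure D1:**
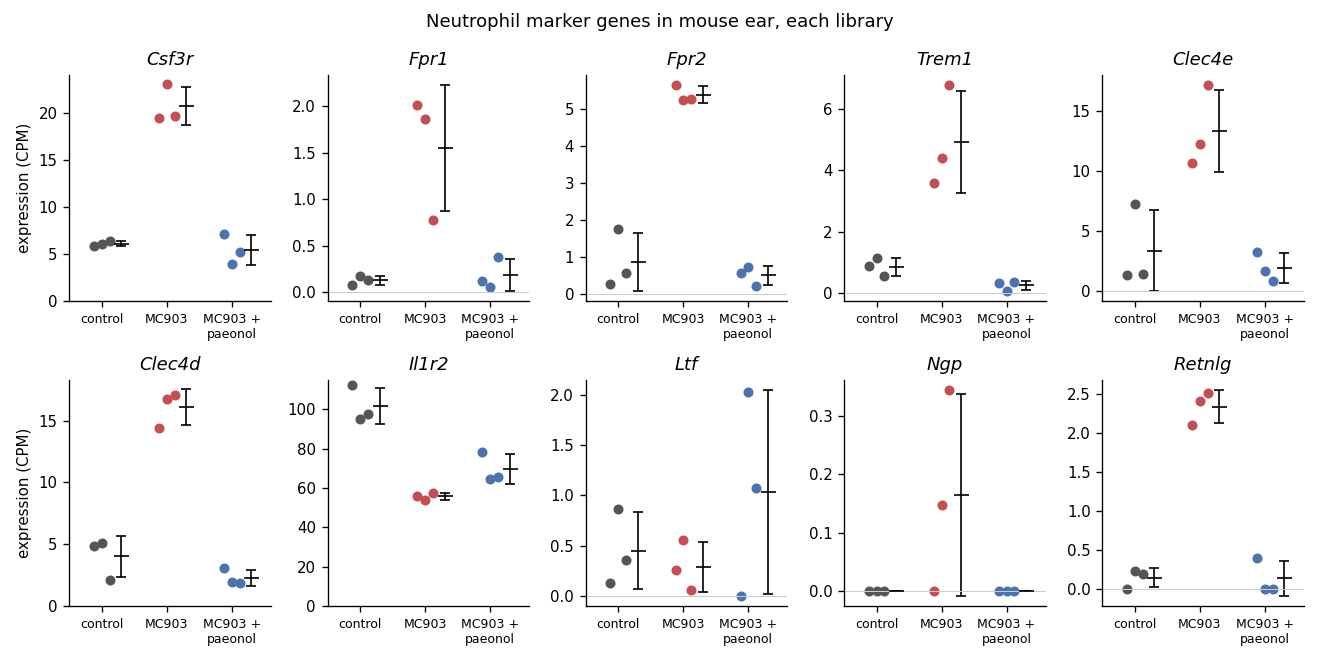
Expression of the 10 neutrophil marker genes in each library (CPM, linear axis, 1 panel per gene). Dots are libraries of the 3 groups, horizontal marks with bars are the mean ± SD of 3 libraries. For Csf3r, Fpr1, Fpr2, Trem1, Clec4e, Clec4d and Retnlg the 3 MC903 libraries lie above all others, whereas Il1r2 is lowest in MC903.

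Csf3r, the receptor for granulocyte colony-stimulating factor (GRCm38 chromosome 4, 126024550 to 126044440, protein coding), was higher in MC903 than in the other groups. It was at 5.92, 6.12 and 6.41 CPM in the control libraries, 19.5, 23.1 and 19.7 CPM in MC903, and 7.19, 3.97 and 5.23 CPM with paeonol. The MC903 libraries stood above all 6 others, and the control values fell inside the range of the paeonol values. Csf3r rose by 1.76 ± 0.19 in MC903 (edgeR adjusted p = 1.9e-05) and fell by 1.93 ± 0.19 with paeonol (edgeR adjusted p = 3.48e-05). Paeonol against control gave -0.17 ± 0.19 (edgeR adjusted p = 0.55). Of the 31-base words in Csf3r transcripts, 23.1% also occur in other genes, mostly in AC105061.2 (19.9%), which had 0 to 20 estimated counts, so its value is uncertain as to that split.

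Its ligand gene Csf3 moved in the same directions at a much lower level. Csf3 was at 0.547 ± 0.266 CPM in control, 3.06 ± 0.632 CPM in MC903 (SD, n = 3), and had 0 to 12 estimated counts with paeonol. It rose by 2.48 ± 0.62 in MC903 and fell by 4.92 ± 0.74 with paeonol (edgeR adjusted p = 0.00682 and 0.000607). Against control it was lower with paeonol, at -2.44 ± 0.73 (edgeR adjusted p = 0.027).

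Fpr1 and Fpr2 encode receptors for formylated peptides released by bacteria and mitochondria, and lie next to each other on chromosome 17 (17876471 to 17883940 and 17887824 to 17893952). Fpr1 had 5, 11 and 8 estimated counts in control, 103, 101 and 43 in MC903, and 7, 3 and 20 with paeonol. Low values in this table pile up at multiples of 4, so intervals were taken on counts divided by 4. The ratio of MC903 to control was 11.7 (95% exact Poisson interval 5.11 to 33.3) and that of MC903 to paeonol 8.37 (3.76 to 19.1), both covering counting error only. The MC903 libraries did not overlap with either other group, and the fit called Fpr1 in both comparisons (edgeR adjusted p = 0.00136 and 0.00542). Fpr1 passed the filter only by being high in MC903, so these calls describe it and are no independent support. Without paeonol library 3 its log2 change with paeonol moved from -3.04 to -4.08, and over all alternatives it was -4.08 to -2.61.

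Fpr2 was at 0.272, 1.76 and 0.575 CPM in control, 5.64, 5.23 and 5.26 CPM in MC903, and 0.565, 0.738 and 0.230 CPM with paeonol. Control library 2 stood above the other 2 controls, though far below MC903. Fpr2 rose by 2.63 ± 0.60 in MC903 (edgeR adjusted p = 0.00506) and fell by 3.39 ± 0.63 with paeonol (edgeR adjusted p = 0.00295). Without control library 2 the rise was 3.66, and over all alternatives it was 2.20 to 3.66. Of the 31-base words in Fpr2 transcripts, 43.0% also occur in other genes, mostly in Gm5966 (37.6%) and in Fpr3 (13.5%), which overlaps Fpr2 on the same strand. Gm5966 had 0 to 3 estimated counts and Fpr3 0 in every library, so the value of Fpr2 is uncertain as to its split among them.

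Trem1, a receptor that amplifies inflammatory signals through the adaptor Tyrobp (chromosome 17, 48232768 to 48246924), had the largest decrease with paeonol among the 9 tested genes in the fit. It was at 0.864, 1.13 and 0.541 CPM in control, 3.58, 4.40 and 6.79 CPM in MC903, and 0.318, 0.0553 and 0.345 CPM with paeonol. The 3 groups did not overlap, with MC903 highest and paeonol lowest. Trem1 rose by 2.54 ± 0.48 in MC903 (edgeR adjusted p = 0.00106) and fell by 4.35 ± 0.54 with paeonol (edgeR adjusted p = 0.000149).

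Trem1 was also lower with paeonol than in control, by -1.81 ± 0.52 (edgeR adjusted p = 0.0214). That call ended without control library 2 (edgeR adjusted p = 0.0731) and when only these 2 groups were fitted (0.0641). The paeonol libraries held 3 to 18 estimated counts of Trem1. AC241601.2, which overlaps Trem1 on the opposite strand, had 0 to 7 in control, 0 to 29 in MC903 and 0 with paeonol. The adaptor gene Tyrobp, shared by many myeloid receptors, was at 36.0 ± 0.794 CPM in control, 63.7 ± 6.19 CPM in MC903 and 21.2 ± 4.65 CPM with paeonol (SD, n = 3). It rose by 0.82 ± 0.13 in MC903 and fell by 1.59 ± 0.13 with paeonol (edgeR adjusted p = 0.000354 and 1.62e-05). Against control it was at -0.76 ± 0.13 with paeonol (edgeR adjusted p = 0.00145). Tyrobp was picked by its p-values in all 3 comparisons, this one included, so that is no separate finding.

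Clec4d and Clec4e are C-type lectin receptors for microbial glycolipids, encoded side by side on chromosome 6 (123262111 to 123275265 and 123281789 to 123289870) and coupled to the adaptor Fcer1g. Clec4d was at 4.85, 5.13 and 2.08 CPM in control, 14.4, 16.7 and 17.1 CPM in MC903, and 3.06, 1.97 and 1.86 CPM with paeonol. MC903 stood apart, and the other groups overlapped. Clec4d rose by 2.00 ± 0.31 (edgeR adjusted p = 0.00039) and fell by 2.81 ± 0.33 with paeonol (edgeR adjusted p = 0.000138). Against control it was at -0.81 ± 0.32 with paeonol and was not called (edgeR adjusted p = 0.0789). DESeq2, scaling by library totals, and the fits without control library 3 or paeonol library 1 called it lower (adjusted p = 0.0319, 0.0408, 0.00519 and 0.0432).

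Clec4e was at 1.34, 7.22 and 1.42 CPM in control, 10.6, 12.3 and 17.2 CPM in MC903, and 3.25, 1.64 and 0.805 CPM with paeonol. Control library 2 lay closer to the lowest MC903 library than to the other controls, although the groups did not overlap. The log2 change in MC903 was 2.00 ± 0.76 and was not called (edgeR adjusted p = 0.067). Without control library 2 it was 3.27 and called (edgeR adjusted p = 0.00144), and DESeq2 and counts divided by 4 also called it (adjusted p = 0.0238 and 0.0403). Over all alternatives the change was 1.63 to 3.27.

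With paeonol Clec4e fell by 2.81 ± 0.80 (edgeR adjusted p = 0.0342). This call was fragile. It ended without any 1 of the 3 MC903 libraries, paeonol library 2 or paeonol library 3 (edgeR adjusted p from 0.0533 to 0.105), without the filter (0.0732) and in the fit blocked on replicate number (0.0636), and without paeonol library 1 the change was -3.44. Over all alternatives the change was -3.44 to -2.45. The adaptor gene Fcer1g was at 40.8 ± 2.34 CPM in control, 67.9 ± 4.20 CPM in MC903 and 30.0 ± 6.02 CPM with paeonol (SD, n = 3), a rise of 0.73 ± 0.12 and a fall of 1.18 ± 0.13 (edgeR adjusted p = 0.000536 and 6.1e-05).

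Retnlg, a small secreted protein of the resistin family found in myeloid cells (chromosome 16, 48872621 to 48874496), had most of its counts in MC903 ears. It had 0, 14 and 11 estimated counts in control, 107, 130 and 138 in MC903, and 22, 0 and 0 with paeonol. The MC903 values were close together and far above the others. The ratio of MC903 to control was 17.1 (95% exact Poisson interval 7.90 to 49.9, on counts divided by 4) and that of MC903 to paeonol 17.3 (7.05 to 44.5). The fit called both, narrowly (edgeR adjusted p = 0.0284 and 0.0416).

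DESeq2 called neither (adjusted p = 0.0861 and 0.107), and with no filter both calls ended (edgeR adjusted p = 0.068 and 0.0956), as they did with the replicate block (0.0739 and 0.0969). The rise was not called without control library 2 or 3 or any 1 of the MC903 libraries (edgeR adjusted p from 0.0531 to 0.0715), and without control library 1 it was 3.48 (log2). The fall was not called without control library 2 or 3, any MC903 library, or paeonol library 2 or 3 (edgeR adjusted p from 0.0566 to 0.0902). Without paeonol library 1 that group is listed at 0 and the fitted change of -10.04 is no bound. Of the 31-base words of Retnlg, 5.51% also occur in Retnla, which had 16 to 387 estimated counts.

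Il1r2, a decoy receptor that binds interleukin-1 without signalling (chromosome 1, 40074079 to 40125231), went the other way. It was at 112, 95.0 and 97.5 CPM in control, 55.8, 53.9 and 57.6 CPM in MC903, and 78.1, 64.7 and 65.3 CPM with paeonol. The 3 groups did not overlap, with MC903 lowest and control highest. Il1r2 fell by 0.86 ± 0.09 in MC903 (edgeR adjusted p = 1.24e-05), rose by 0.32 ± 0.09 with paeonol (edgeR adjusted p = 0.0181) and stayed below control by -0.55 ± 0.09 (edgeR adjusted p = 0.00078). The rise with paeonol was not called without MC903 library 2 or paeonol library 1 (edgeR adjusted p = 0.065 and 0.0663). Gm16894 overlaps Il1r2 on the opposite strand with 27 to 86 estimated counts, against 2850 to 7002 for Il1r2. Gm37347 overlaps Il1r2 on the same strand and had 4 to 54.

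Per kilobase of annotated exon, Il1r2 was by far the most abundant of the 10, at 53.2 CPM per kb in control, 29.2 in MC903 and 36.4 with paeonol. In MC903 the next were Clec4d at 10.1, Csf3r at 5.75, Fpr2 at 4.15 and Retnlg at 3.94 CPM per kb. Clec4e, Trem1 and Fpr1 followed at 2.69, 1.64 and 1.17 CPM per kb. A sum over the 10 genes therefore mostly follows Il1r2, and was 109 to 126 CPM in control, 114 to 127 CPM in MC903 and 75.2 to 93.0 CPM with paeonol.

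Of the 2 granule genes, Ltf varied within every group and Ngp lay around the floor. Ltf, lactoferrin, had 8, 53 and 21 estimated counts in control, 13, 30 and 3 in MC903, and 0, 110 and 56 with paeonol. Its groups overlapped in every comparison and it was not called (edgeR adjusted p = 0.732, 0.363 and 0.548). Ngp, neutrophilic granule protein, had 0 in each control and paeonol library and 0, 8 and 19 estimated counts in MC903, and was not tested. The counts of Ngp lie around the floor of 12 per library used here (3 times 4), so a difference in Ngp was not detectable at this depth.

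**Figure D2:**
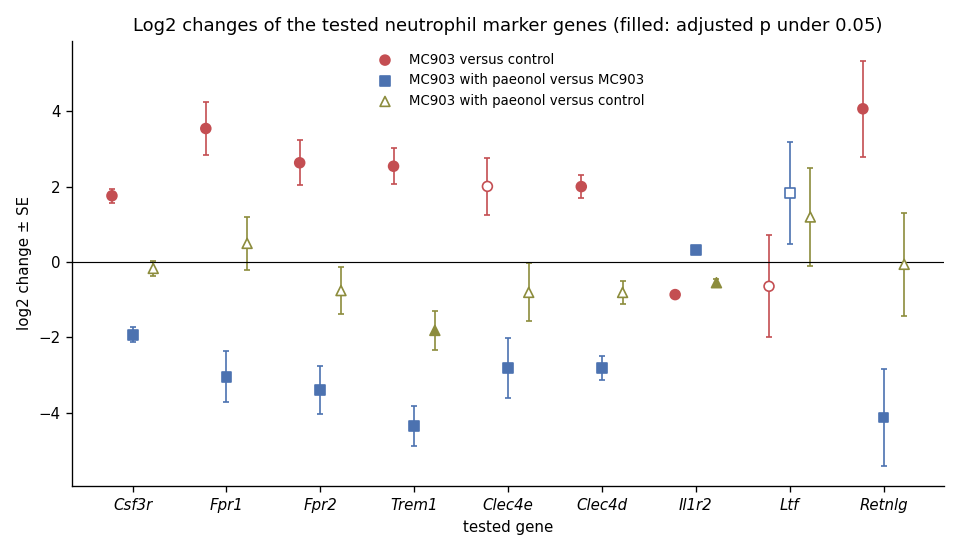
Log2 change ± SE of the 9 tested neutrophil marker genes (y axis) in the 3 comparisons, from the edgeR fit. Filled symbols passed an adjusted p under 0.05. Among the receptors and Retnlg the circles (MC903 versus control) lie above 0 and the squares (MC903 with paeonol versus MC903) below it, while Il1r2 has the opposite signs and Ltf has wide bars.

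The 7 genes that were highest in MC903 resembled each other across libraries. Over the 9 libraries, the correlation of log2 CPM between any 2 of these 7 genes was 0.71 (Fpr1 with Clec4e) to 0.96 (Fpr2 with Clec4e). Il1r2 was at -0.36 to -0.75 with them and Ltf at -0.06 to -0.41. These values are descriptions over 9 libraries in 3 separate groups, and the group differences are part of them. The 7 genes were grouped by those differences, so high values among them follow in part from that choice. The genes most like the mean of the 9 tested genes, out of 13312 searched, were Inpp5d, Plaur, Zbtb16, Zfp697 and Vav1, with Pearson r of 0.983 to 0.986 over the 9 libraries. Plaur, the urokinase receptor, was at 10.4 ± 3.09 CPM in control, 29.8 ± 4.16 CPM in MC903 and 7.46 ± 0.935 CPM with paeonol (SD, n = 3).

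Genes for other granule proteins went both ways. Of 14 listed and 13 tested, 6 rose and 2 fell in MC903 (median log2 change 0.65), and 7 fell and 2 rose with paeonol against MC903 (median -1.27). The counts of this and every list below stand against the shares of all tested genes. Those were 23.0% higher and 23.8% lower in MC903, and 14.3% lower and 15.3% higher with paeonol against MC903. With paeonol against control they were 16.3% higher and 14.5% lower. Mmp9, gelatinase B, went from 10.6 ± 1.44 CPM in control to 65.6 ± 30.3 CPM in MC903 (SD, n = 3), and had 175 to 357 estimated counts with paeonol. It rose by 2.63 ± 0.40 and fell by 3.71 ± 0.43 (edgeR adjusted p = 0.00121 and 0.000616). Pglyrp1, a peptidoglycan-binding protein that can engage Trem1, rose by 0.65 ± 0.24 and fell by 1.43 ± 0.24 (edgeR adjusted p = 0.0408 and 0.0011). Lysozyme, Lyz2, also a macrophage gene, rose by 0.47 ± 0.17 and fell by 1.22 ± 0.17. Orm1, an acute phase glycoprotein also stored in granules, fell in MC903 by 2.21 ± 0.24 and rose with paeonol by 3.00 ± 0.25.

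Of 21 other surface and effector genes of neutrophils, 19 were tested. In MC903 11 rose and 0 fell (median 1.00), and with paeonol 12 fell and 1 rose against MC903 (median -0.96). Cd14, a co-receptor for lipopolysaccharide shared with monocytes, was at 11.8 ± 1.09, 31.3 ± 6.61 and 5.60 ± 0.759 CPM in control, MC903 and paeonol (SD, n = 3). The integrin chain gene Itgb2 rose by 0.81 ± 0.14 and fell by 1.38 ± 0.14, the Fc receptor gene Fcgr3 rose by 1.18 ± 0.12 and fell by 1.64 ± 0.13, and Alox5ap, needed for leukotriene synthesis, rose by 0.36 ± 0.10 and fell by 0.80 ± 0.10. These 4 were also lower with paeonol than in control, by -1.07, -0.57, -0.46 and -0.45. They were picked by their p-values in all 3 comparisons, this one included, so that is no separate finding. In that comparison 7 of the 19 were lower and 4 higher (Cxcr2, Padi4, Ltb4r1 and Mxd1).

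The NADPH oxidase makes the superoxide with which phagocytes kill microbes, in neutrophils and macrophages alike. Of its 6 genes, 5 rose in MC903 and 0 fell (median 0.90), 6 fell with paeonol against MC903 (median -1.14), and 2 were lower with paeonol than in control. Rac2, its GTPase of blood cells, rose by 1.34 ± 0.21 and fell by 1.81 ± 0.22, and Cyba, a membrane subunit, rose by 0.93 ± 0.13 and fell by 1.24 ± 0.13. The catalytic subunit gene Cybb was at 26.3 ± 5.44 CPM in control and 29.7 ± 2.01 CPM in MC903 (SD, n = 3) and was not called there (edgeR adjusted p = 0.513), but fell by 1.04 ± 0.21 with paeonol (edgeR adjusted p = 0.00406).

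Among 16 genes of neutrophil attraction, growth and entry, 15 were tested, of which 9 rose and 1 fell in MC903 (median 1.17), and 6 fell and 1 rose with paeonol against MC903 (median -0.86). Cxcl2, a chemokine for the receptor Cxcr2, went from 6.50 ± 2.52 CPM in control to 43.8 ± 10.8 CPM in MC903 and 3.52 ± 0.711 CPM with paeonol (SD, n = 3). It rose by 2.75 ± 0.32 and fell by 3.64 ± 0.34 (edgeR adjusted p = 0.000144 and 0.000107). The vessel adhesion genes Selp, P-selectin, and Vcam1 rose by 1.15 ± 0.21 and 1.09 ± 0.22 and fell by 1.73 ± 0.21 and 1.79 ± 0.22.

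Among 14 ligands, adaptors and partners of the receptors, 10 rose and 0 fell in MC903 (median 0.69), and 9 fell and 0 rose with paeonol against MC903 (median -0.64). Against control 3 were higher and 5 lower with paeonol. Il1b, the cytokine that Il1r2 captures, was at 12.3 ± 3.92 CPM in control, 40.5 ± 6.12 CPM in MC903 and 6.59 ± 1.08 CPM with paeonol (SD, n = 3), the reverse of the order of Il1r2 between control and MC903. Il1b rose by 1.72 ± 0.23 and fell by 2.62 ± 0.24 (edgeR adjusted p = 0.000175 and 4.62e-05). Anxa1, a ligand of the formyl peptide receptors, rose by 0.75 ± 0.06 and fell by only 0.20 ± 0.06, and stayed above control with paeonol by 0.56 ± 0.06 (edgeR adjusted p = 5.54e-05).

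The transcription factors of granulocytes did not move as 1 group. Of 6 listed, 5 were tested; 3 rose and 1 fell in MC903 (median 1.23), and 3 fell and 1 rose with paeonol against MC903 (median -0.97). Cebpe, the factor that drives granule genes in maturing neutrophils, had 0 counts in all 9 libraries. Spi1, which encodes PU.1, rose by 0.53 ± 0.13 and fell by 0.97 ± 0.13 (edgeR adjusted p = 0.00607 and 0.000276). Cebpd rose by 1.67 ± 0.15 and fell by 1.53 ± 0.15, and Cebpb rose from 38.8 CPM in control to 95.6 CPM in MC903, fell by 0.48 ± 0.10 with paeonol and stayed above control by 0.82 ± 0.10. Cebpa, also active in epidermis, fell by 0.45 ± 0.09 in MC903 and rose by 1.03 ± 0.09 with paeonol. Csf3 and some others stand in more than 1 list, and the lists share genes with macrophages.

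**Figure D3:**
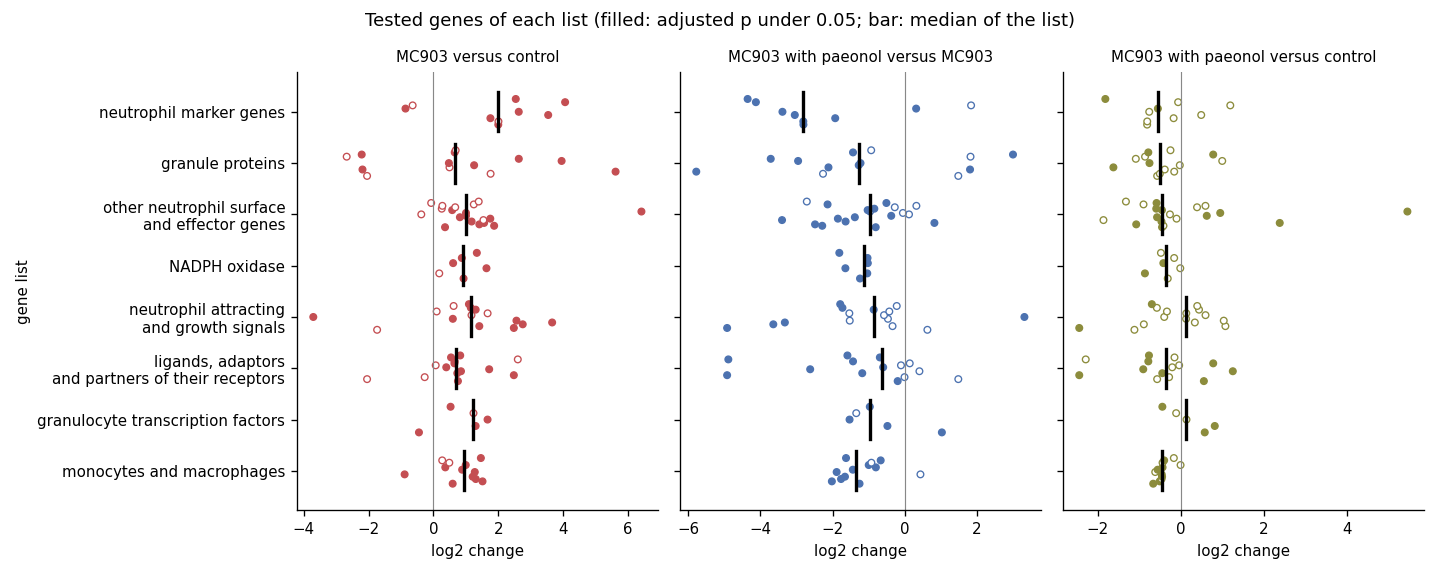
Log2 changes (x axis) of the tested genes of 8 lists (the neutrophil marker genes, their 6 related lists, and monocytes and macrophages) in the 3 comparisons, 1 point per gene, filled where the adjusted p was under 0.05, with a bar at the median of the list. The medians of these 8 lists lie right of 0 in MC903 versus control and left of 0 in MC903 with paeonol versus MC903, for monocyte and macrophage markers (0.94 and -1.34) as for the neutrophil marker genes (2.00 and -2.81).

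Most of the listed markers of monocytes and macrophages moved with these genes in MC903 versus control and in MC903 with paeonol versus MC903. Of 12 such markers, 9 rose and 1 fell in MC903 and 10 fell and 0 rose with paeonol against MC903. The 1 that fell was the monocyte gene Ccr2, at 55.5 ± 3.01, 29.9 ± 6.50 and 40.4 ± 6.23 CPM in control, MC903 and paeonol (SD, n = 3). Ly6c2, another monocyte gene, was not called in any comparison. With paeonol against control, 7 of the 12 markers were lower and 0 higher (median -0.45), against 14.5% and 16.3% of all tested genes. Of the 9 tested neutrophil marker genes, 2 were lower and 0 higher there. The summed level of the 12 markers was 658 to 697 CPM in control, 1246 to 1418 CPM in MC903 and 399 to 610 CPM with paeonol. Markers of red blood cells, which would come with blood left in the ear, summed to 67.8 to 130 CPM in control, 21.1 to 41.8 CPM in MC903 and 3.26 to 7.32 CPM with paeonol. Markers of skeletal muscle summed to 2660 to 4104 CPM, 980 to 1304 CPM and 1316 to 1864 CPM in the same order, and those of keratinocytes to 17660 to 21143 CPM, 23959 to 30701 CPM and 43291 to 46583 CPM. Sums were 104 to 120, 136 to 208 and 82.3 to 126 CPM for mast cells and basophils, 30.1 to 34.2, 21.5 to 29.6 and 15.8 to 26.8 CPM for T cells, and below 12 CPM in every library for eosinophils and for B cells. A sum mostly follows its most abundant genes and can hide markers that moved in opposite directions. In MC903, 3 of 6 T cell markers rose and 2 fell (median log2 change 0.39). Of 6 keratinocyte markers, 2 rose and 2 fell there (median -0.18). The part of these shifts in the changes of the neutrophil marker genes was not tested. In RNA of whole ear, fewer cells of a type and less RNA per cell cannot be told apart.

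**Figure D4:**
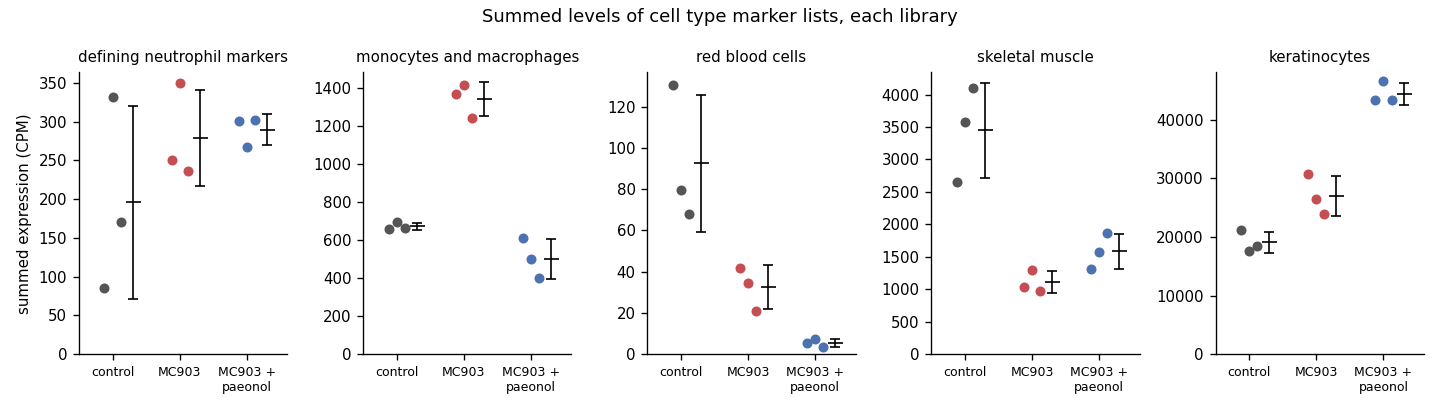
Summed expression (CPM, linear axis from 0) of 5 lists of cell type markers in each library, with mean ± SD of 3 libraries per group. The monocyte and macrophage sum is highest in MC903 (1246 to 1418 CPM), the red blood cell sum is lowest with paeonol (3.26 to 7.32 CPM), and the defining neutrophil markers overlap between all 3 groups.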

How the data were processed

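Poly(A)-selected RNA of 9 ear libraries was measured. HISAT2 2.0.4, StringTie 1.3.4d, cutadapt and the GRCm38 build are named per the submitters' processing notes. The counting step, its annotation and its use of strand are not stated there. The deposited values are whole numbers per gene, taken as estimated counts, not scaled between libraries. Features with a value of 4 outnumber those at neighbouring values by 1.90 to 2.23 times. Groups come from the treatment labels and columns from library names. Features were named with GENCODE M21 (55141 of 55401 matched).

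edgeR 4.0.16 (R 4.3.3) was run with filterByExpr (minimum count 10, minimum total 15), TMM factors (0.942 to 1.09) and a robust quasi-likelihood fit with 1 coefficient per group. SE is the log2 change divided by the root of F. Alternatives were DESeq2 (1.42.0), edgeR scaled with size factors from DESeq2, library totals, no filter, a mean CPM of 1, fits of 2 groups, the replicate block, counts divided by 4, and each library left out. The fit was tested on simulated data of MC903 versus control with 21925 genes, where 36%, 62% and 78% of genes raised 1.5-, 2- and 4-fold, 56% of those lowered to 0.5-fold, and 0.023% of unchanged genes were called. The simulation changed far fewer genes than were called here, all above a minimum mean count. Its shares therefore do not give the power of the fit on these data. On counts divided by 4, libraries of a group differed beyond sampling noise (chi-square over its degrees of freedom 6.51 to 14.4). From each list, at most 4 genes with the smallest mean p over the 3 comparisons are named as changed. Their calls were part of that choice and are no separate finding. Markers used to check the label are given besides. The marker genes, lists and alternatives were chosen with earlier results of these data known.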

Additional observations from a re-analysis of the deposited data

How the results depend on the processing

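Csf3r, Fpr1, Fpr2, Trem1 and Clec4d kept their calls in MC903 versus control and in MC903 with paeonol versus MC903 under every alternative that could test them; a mean CPM of 1 left Fpr1, Retnlg and Ltf untested. The number of neutrophil marker genes called was 7 in MC903 versus control (5 to 8 over the alternatives), 8 in MC903 with paeonol versus MC903 (5 without MC903 library 2, and 5 to 8 over the libraries left out) and 2 in MC903 with paeonol versus control (1 without control library 2, 1 to 3 over the libraries left out, and 1 when only these 2 groups were fitted). Signs turned only in values that were not called. For paeonol against control these were Csf3r without paeonol library 2 (0.016; range over the libraries left out -0.40 to 0.016), Fpr1 without paeonol library 3 (-0.54; -0.54 to 0.93), Fpr2 without control library 2 (0.28; -1.18 to 0.28), Clec4e without control library 2 (0.46; -1.42 to 0.46), and Retnlg without control library 2 or 3 or paeonol library 2 or 3 (0.52, 0.21, 0.51 and 0.50; -5.97 to 0.52). For MC903 against control it was Ltf without control library 2 (0.25; -1.54 to 0.25). The causes were not tested. With library totals in place of TMM, the all-gene median in MC903 versus control went from -0.02 to -0.21, with the split of calls going from 5044 higher and 5215 lower to 3402 and 7224, and in paeonol versus control from -0.03 to -0.20, from 3578 and 3187 to 2155 and 5354. In paeonol versus MC903 the split went from 3357 and 3145 to 3618 and 2807. No sign of a neutrophil marker gene turned under it. The replicate number as a block gave 6, 6 and 2 neutrophil marker genes called, losing Retnlg in the first comparison and Retnlg and Clec4e in the second. Deviations of same-numbered libraries correlated at -0.011 to 0.040, and those of differently numbered libraries at -0.032 to 0.026. These values show no pairing by number, but with 3 libraries in each group they cannot settle whether one exists. Fpr1, Retnlg, Ltf and Ngp rest on few counts, and Ngp, Ly6g and Elane lie at or near the floor. Because Fpr1 passed the filter only by being high in MC903, its kept calls are no independent support.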

Other observations

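The levels of 2 further genes of the lists, chosen after their values were seen, were highest in MC903. Padi4, the peptidyl arginine deiminase that citrullinates histones in neutrophil extracellular traps, was at 0.699 ± 0.165 CPM in control, 59.9 ± 1.42 CPM in MC903 and 30.8 ± 20.9 CPM with paeonol (SD, n = 3). It rose by 6.41 ± 0.58 in MC903 (edgeR adjusted p = 1e-04), and paeonol against MC903 gave -0.96 ± 0.43, which was not called (edgeR adjusted p = 0.146). The paeonol libraries held 894 to 2849 estimated counts of it. Mmp8, the neutrophil collagenase, was at 0.205 ± 0.154, 3.19 ± 0.247 and 0.409 ± 0.337 CPM in control, MC903 and paeonol, and rose by 3.95 ± 0.66 and fell by 2.95 ± 0.62 (edgeR adjusted p = 0.000521 and 0.00433).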
